A study of Cricetulus griseus with 6 samples.

Results

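The genes that build N-glycans in the endoplasmic reticulum (ER), remodel them in the Golgi, start mucin-type O-glycans and carry activated sugars across these membranes were examined in RNA-Seq libraries of CHO-T cells. CHO-T cells are Chinese hamster ovary (CHO) cells that carry a retrovirus with the cDNA of T-cadherin (*Cdh13*), a glycoprotein held in the membrane by a lipid anchor. Whether the line is a clone is not given in the sources used here. The cells were transfected with negative control siRNA (n = 3 libraries) or with *Xbp1* siRNA (n = 3 libraries), and RNA was taken after 48 h. No further treatment is named for either group, and both groups share the CHO background, the T-cadherin transgene and the transfection. Genes were chosen by symbol: the *Alg*, *Dpm* and *Pmm* genes and *Dpagt1*, the *Man1a* and *Man2a* mannosidases, the *Mgat*, *Galnt*, *B3gnt*, *B3galt* and *B4galt* transferases, the *St3*, *St6* and *St8* sialyltransferases, the *Fut* fucosyltransferases and the *Slc35* transporters. Of the 27873 rows in the files, 123 carried such a symbol, and 80 of these had a mean of at least 0.1 FPKM (a level per gene length, scaled to the mapped fragments of the library) over the 6 libraries. These 80 genes are described below.

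An N-glycan begins as an oligosaccharide assembled sugar by sugar on the lipid dolichol, first on the cytosolic face of the ER membrane and then on the lumenal face, before it is moved as a block onto a newly made protein. In the Golgi, mannosidases trim the chain, *N*-acetylglucosaminyltransferases open branches on it, and galactose, fucose and sialic acid are added from nucleotide sugars that SLC35 transporters bring into the lumen. Mucin-type O-glycans are started separately, by the GALNT enzymes, on serine and threonine. XBP1 is the transcription factor whose mRNA the ER stress sensor IRE1α splices, and it is known for controlling genes of the secretory pathway in cells that secrete much protein.

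The 6 libraries held between 15109 and 15545 rows above 0, and their depth, read from the steps in which low FPKM values fell, lay between 94.0% and 116% of that of control replicate 1. Within a group, libraries correlated across rows with r between 0.966 and 0.972, and none stood apart. The labels do not say whether the 3 libraries of a group came from separate cultures. The methods speak of independent biological experiments as a general rule, without naming the RNA-Seq libraries, so p-values measure the spread between these libraries, which may be technical. *Xbp1* itself lay at 26.0, 26.2 and 28.4 FPKM in the control libraries and at 2.18, 2.11 and 1.39 FPKM in the *Xbp1* siRNA libraries, which did not overlap. Ovary is the labeled source, but the defining markers *Fshr* and *Lhcgr* were listed at 0 in all 6 libraries, and the 5 ovarian follicle markers found of 7 summed to between 5.32 and 7.10 FPKM with control siRNA and between 5.91 and 8.45 FPKM with *Xbp1* siRNA. The 6 mesenchymal markers summed to between 387 and 407 FPKM and between 322 and 345 FPKM, most of it *Vim*. Within this list *Fn1* went from 13.1 to 23.3 FPKM on average (adjusted p = 2.15e-05) while *Vim* and *Pdgfrb* fell (adjusted p = 7.38e-04 and 0.00289), and *Col1a1*, *Col1a2* and *Thy1* were listed at 0. Of 5 epithelial markers 3 were found, with *Krt18* at 0. Their sums were between 1.83 and 2.16 FPKM with control siRNA and between 4.59 and 5.79 FPKM with *Xbp1* siRNA. *Epcam* went from 1.82 to 4.72 FPKM on average (adjusted p = 2.56e-04), and *Cdh1*, at a low level, from 0.131 to 0.434 FPKM (adjusted p = 0.0489). The 2 blood markers lay between 5.18 and 6.15 FPKM and between 6.99 and 8.80 FPKM. With *Ptprc* at 0 this was all *Cd68*, which rose (adjusted p = 0.0142). The 4 oocyte markers lay between 1.99 and 2.41 FPKM and between 1.45 and 2.19 FPKM, with *Zp3* at 0. The part of these differences in the results below was not tested.

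Glycosylation genes shifted by small amounts after *Xbp1* silencing, more of them upward than downward. *Galnt7*, an enzyme of mucin-type O-glycan initiation, and *St8sia6*, a sialyltransferase of low level, rose more than 2-fold, and no gene fell by that much. In bulk RNA a lower level in every cell and a loss in some of the cells cannot be told apart. *B4galt7*, *Galnt1*, *St3gal5* and *Alg14* rose by smaller amounts, and *Galnt2*, *Man1a1*, *Pmm2* and *Slc35c1* fell. The summed level of the 80 genes was 1751 ± 25.7 FPKM with control siRNA and 1843 ± 18.5 FPKM with *Xbp1* siRNA (SD, n = 3 each), or 105% of control, while the sum over all rows tested went to 91.0% of control.

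Differences were tested with limma on log2(FPKM + 0.1) across the 14361 rows with a mean of at least 0.1 FPKM, with p-values adjusted by the Benjamini-Hochberg method over all of them. Genes were called where the adjusted p was under 0.05 and the log2 fold change was 1 or more in size, and they are said to have risen or fallen where the adjusted p alone was under 0.05. The log2(FPKM + 0.1) scale understates the change of genes with low values. By the stricter rule 2 of the 80 genes (2.5%) were called higher, close to the 2.69% of all rows tested, and 0 were called lower, against 2.5% of all rows. By adjusted p alone, 28 genes (35%) rose, against 20.2% of all rows, and 12 (15.0%) fell, against 20.2% of all rows. The other 40 did not pass. These shares of all rows, 20.2% in each direction, also stand as the background of the counts by role given below. Levels of the *Xbp1* siRNA libraries all lay above those of the control libraries for 35 of the 80 genes, against 26.1% of all rows, and all lay below for 15, against 25.8% of all rows. Among genes with a mean of at least 1 FPKM, 37.0% of 73 glycosylation genes rose and 16.4% fell, compared with 23.4% and 24.3% of 11610 rows. The median log2 fold change was 0.14, against 0.01 over all rows tested, with 50 values above 0 and 30 below.

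**Figure D1:**
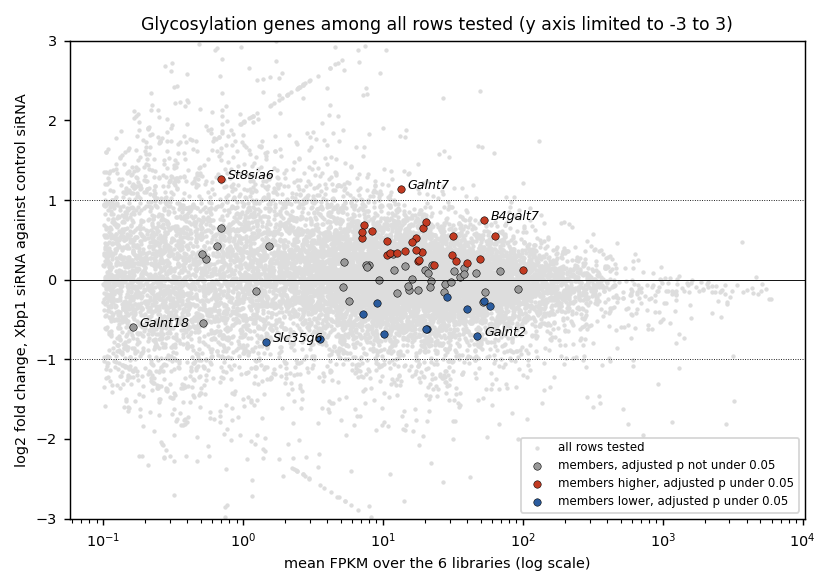
Log2 fold change of *Xbp1* siRNA against control siRNA (y axis, limited to between -3 and 3) for each row tested, plotted against its mean FPKM over the 6 libraries (x axis, log scale). Small grey points are the 14361 rows tested and large points are the 80 glycosylation genes, red where they rose, blue where they fell and grey where the adjusted p was not under 0.05. The glycosylation genes lie between -0.79 and 1.27, and only *Galnt7* and *St8sia6* lie beyond the dotted lines at a log2 fold change of 1 in size.

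Most of the changes were modest. The log2 fold change was under 0.25 in size for 36 genes, of which 6 passed, between 0.25 and 0.5 for 23, of which 16 passed, between 0.5 and 0.75 for 18, of which 15 passed, and 0.75 or more for 3, which all passed. Expression was moderate as well, with a median of 17.3 FPKM against 10.9 FPKM over all rows tested. Of the 7 genes with a mean under 1 FPKM, 1 passed, whereas 26 of the 47 genes between 10 and 50 FPKM did. Standard errors of the genes under 1 FPKM were larger, and for those that did not pass they lay between 0.24 and 0.56 on the log2 scale. At that precision a difference such as the 0.65 of *Galnt13* (adjusted p = 0.0695) did not pass.

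**Figure D2:**
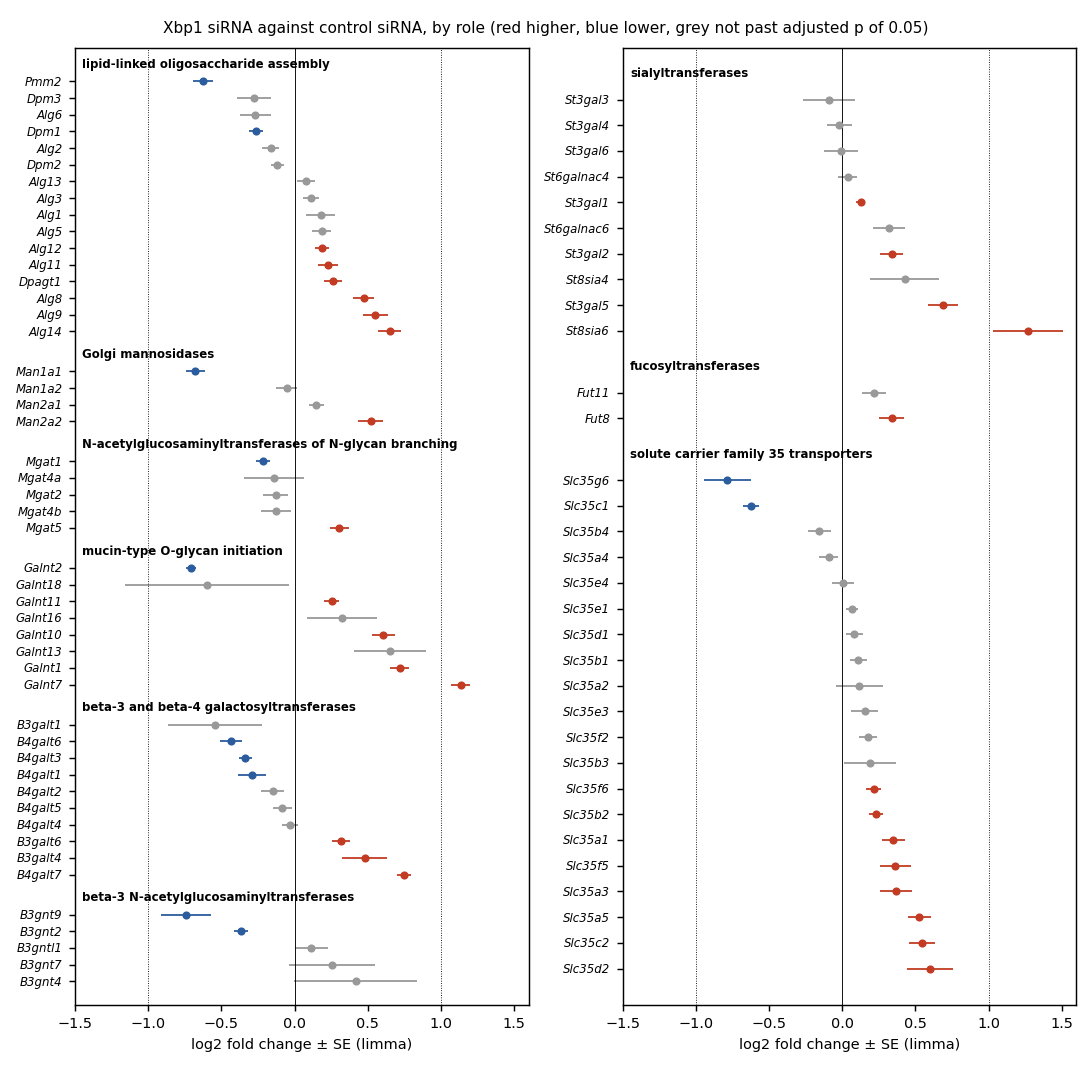
Log2 fold change of *Xbp1* siRNA against control siRNA with its standard error from limma (x axis, points and bars) for each of the 80 genes, ordered within 9 groups by role (y axis). Red points rose, blue points fell and grey points had an adjusted p not under 0.05; 6 of the 9 groups hold both red and blue points.

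Assembly of the lipid-linked oligosaccharide, the precursor of all N-glycans, was represented by 16 genes, of which 6 rose, 2 fell and 8 did not pass. Their median log2 fold change was 0.15, and their summed level was 499 ± 16.0 FPKM with control siRNA and 510 ± 6.54 FPKM with *Xbp1* siRNA. Of the enzymes that add sugars 6 rose and 5 did not pass, and of the genes for sugar donors 2 fell and 3 did not pass. This split by step was not among the role groups and is a description. *Alg2* and *Alg6* did not pass, but all their *Xbp1* siRNA libraries lay below all control libraries. *Alg2* passed as lower with eBayes without trend (adjusted p = 0.0417) and with a filter at a mean of 1 FPKM (adjusted p = 0.0419), as did *Alg6* with quantile normalization (adjusted p = 0.0450).

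On the cytosolic face, 3 of 6 genes rose and none fell, against 20.2% of all rows tested in each direction, and the sum went from 143 ± 4.54 to 165 ± 3.23 FPKM. *Dpagt1*, which puts the first sugar on dolichol phosphate and is the enzyme blocked by tunicamycin, lay at 46.6, 45.5 and 42.5 FPKM with control siRNA and at 56.8, 50.1 and 54.8 FPKM with *Xbp1* siRNA. All 3 *Xbp1* siRNA libraries were above all 3 control libraries, with a log2 fold change of 0.26 (adjusted p = 0.00982). The next sugar is added by a complex of ALG13, the catalytic subunit, and ALG14, its membrane anchor. *Alg14* was at 14.8, 14.2 and 16.5 FPKM in the control libraries and at 22.1, 25.2 and 24.3 FPKM after silencing, a log2 fold change of 0.65 (standard error 0.0766, adjusted p = 4.83e-04) without overlap. *Alg13* was at 45.4 ± 2.52 and 47.9 ± 3.04 FPKM, and its libraries overlapped (adjusted p = 0.356). The level of *Alg14* was thus 33.5% of that of *Alg13* with control siRNA and 49.8% with *Xbp1* siRNA. Of the mannosyltransferases of this face, *Alg11* rose by 0.23 on the log2 scale (adjusted p = 0.0296), a call lost without *Xbp1* siRNA replicate 1 or 2 (adjusted p = 0.0618 and 0.0915) or control replicate 2 or 3 (adjusted p = 0.0902 and 0.0855). The others did not pass: *Alg1* had 0.18 (adjusted p = 0.202), or 0.28 without *Xbp1* siRNA replicate 2, where it passed (adjusted p = 0.0427), and *Alg2* had -0.16 (adjusted p = 0.0558).

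On the lumenal face, 3 of the 5 genes tested rose and none fell, and the sum went from 98.4 ± 0.897 to 120 ± 4.40 FPKM. No row carried the symbol *Alg10*. *Alg9*, a mannosyltransferase, was at 22.6, 28.6 and 26.7 FPKM with control siRNA and at 38.0, 38.7 and 37.2 FPKM with *Xbp1* siRNA. It rose by 0.55 on the log2 scale (standard error 0.0840, adjusted p = 0.00162), and the lowest *Xbp1* siRNA library was well above the highest control library. *Alg8*, a glucosyltransferase of the final steps, went from 14.0, 13.5 and 13.3 FPKM to 18.0, 20.8 and 18.0 FPKM, a log2 fold change of 0.47 (adjusted p = 0.00153) with no overlap. *Alg12*, another mannosyltransferase, rose by 0.19 on the log2 scale (adjusted p = 0.0209), but not without *Xbp1* siRNA replicate 2 (adjusted p = 0.0661), control replicate 2 (adjusted p = 0.0535) or control replicate 3 (adjusted p = 0.0626). *Alg3*, the mannosyltransferase that acts before ALG9, had 0.11 on the log2 scale (adjusted p = 0.149), or 0.16 without control replicate 1, where it passed (adjusted p = 0.0389), and *Alg6*, the glucosyltransferase that acts before ALG8, had -0.27 (adjusted p = 0.0811).

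Among the genes for sugar donors, *Pmm2* and *Dpm1* fell. Of *Pmm2*, *Dpm1*, *Dpm2*, *Dpm3* and *Alg5*, 2 fell and 3 did not pass, and their sum went from 258 ± 12.6 to 224 ± 6.39 FPKM, or 87.0% of control. *Pmm2*, the phosphomannomutase on the route to GDP-mannose, lay at 23.3, 26.9 and 24.9 FPKM in the control libraries and at 16.5, 16.7 and 15.2 FPKM in the *Xbp1* siRNA libraries. It fell by 0.63 on the log2 scale (standard error 0.0693, adjusted p = 3.56e-04), and the groups were far apart. Dolichol phosphate mannose, the donor of the lumenal mannoses, is made by a complex whose catalytic subunit is DPM1. *Dpm1* was at 57.4, 58.5 and 58.1 FPKM and then at 45.6, 50.2 and 49.2 FPKM, a log2 fold change of -0.26 (adjusted p = 0.00292) with no overlap. Its partner *Dpm2*, which had the highest level of the 16 genes, was at 103, 93.7 and 93.4 FPKM with control siRNA and at 90.8, 90.3 and 86.0 FPKM with *Xbp1* siRNA. These groups did not overlap either, but the log2 fold change of -0.12 did not pass (adjusted p = 0.0891), and it was -0.07 without control replicate 1. *Dpm3*, the third subunit, had -0.28 (adjusted p = 0.0961, or 0.00907 with a replicate block), with control libraries spread between 51.5 and 67.9 FPKM. *Alg5*, which makes the dolichol-linked glucose, had 0.18 (adjusted p = 0.0547), and passed in 3 of 14 alternatives, with 0.23 (adjusted p = 0.0341) without control replicate 3. Within libraries, *Pmm2* amounted to 55.9% of *Dpagt1* on average with control siRNA and to 30.1% with *Xbp1* siRNA.

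**Figure D3:**
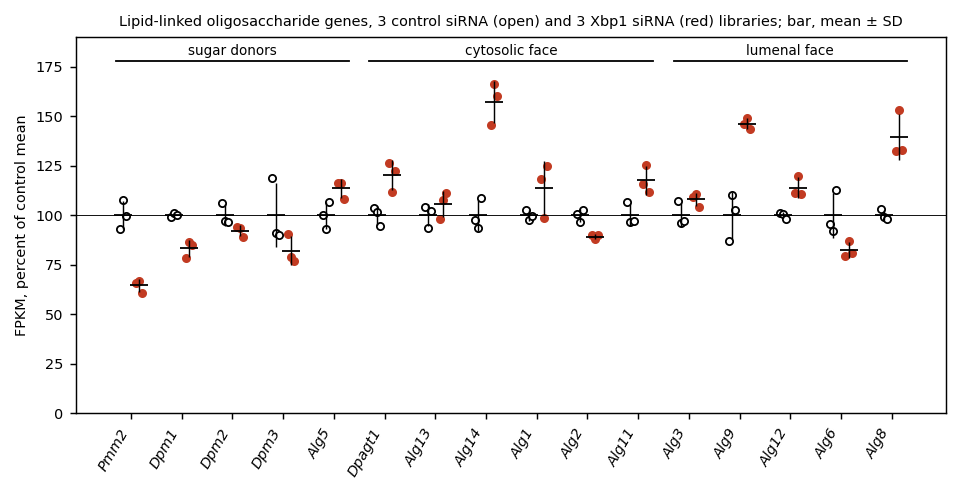
FPKM of the 16 genes of lipid-linked oligosaccharide assembly (x axis, grouped by step) in each library as percent of the control mean of that gene (y axis), with open circles for 3 control siRNA libraries, red circles for 3 *Xbp1* siRNA libraries and bars for the mean and SD. *Pmm2* lies at 64.6% of control and *Dpm1* at 83.3%, while *Alg14* lies at 157%, *Alg9* at 146% and *Alg8* at 139%.

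Among the Golgi mannosidases, 1 of 4 genes rose, 1 fell and 2 did not pass, near the 20.2% of all rows tested in each direction. *Man1a1* and *Man1a2* encode the enzymes that trim the terminal mannoses when an N-glycan reaches the Golgi. *Man1a1* was at 12.0, 12.6 and 12.9 FPKM in the control libraries and at 8.03, 7.68 and 7.60 FPKM in the *Xbp1* siRNA libraries. All control libraries were above all *Xbp1* siRNA libraries, and the gene fell by 0.68 on the log2 scale (standard error 0.0657, adjusted p = 1.89e-04). *Man1a2*, expressed at a higher level, was at 28.2 ± 1.78 and 27.2 ± 2.15 FPKM (adjusted p = 0.608), so *Man1a1* amounted to 44.4 ± 1.41% of *Man1a2* with control siRNA and to 28.7 ± 2.93% with *Xbp1* siRNA. *Man2a1* and *Man2a2* encode the mannosidases that act after the first branch has been opened, and *Man2a2* was at 14.3, 14.1 and 14.2 FPKM and then at 23.3, 18.6 and 19.6 FPKM. Its log2 fold change of 0.52 (adjusted p = 0.00235) came with no overlap and with a wider spread after silencing than before. *Man2a1*, the most abundant of the 4, was at 34.4, 36.0 and 38.5 FPKM with control siRNA and at 39.9, 39.7 and 41.1 FPKM with *Xbp1* siRNA, and with a log2 fold change of 0.15 it just missed the threshold (adjusted p = 0.0505), which it passed in 6 of 14 alternative analyses.

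Of the *Mgat* genes, which encode the *N*-acetylglucosaminyltransferases that open the branches of complex N-glycans, 1 of 5 rose, 1 fell and 3 did not pass, which is close to the 20.2% of all rows tested that rose and the 20.2% that fell. *Mgat1*, which opens the first branch and on which all complex N-glycans depend, was the most abundant. Its levels were 32.2, 30.3 and 30.4 FPKM in the control libraries and 27.0, 25.8 and 27.3 FPKM in the *Xbp1* siRNA libraries, without overlap, and it fell by 0.21 on the log2 scale (adjusted p = 0.00943). *Mgat5*, which opens a late branch, was at 9.11, 10.1 and 9.68 FPKM with control siRNA and at 11.7, 11.9 and 12.1 FPKM with *Xbp1* siRNA. It rose by 0.31 (adjusted p = 0.00825), again without overlap. The enzymes between them did not pass. *Mgat2* had -0.13 (adjusted p = 0.264), or -0.21 without control replicate 2, where it passed as lower (adjusted p = 0.0461). *Mgat4a* had -0.14 (adjusted p = 0.624) and *Mgat4b* had -0.13 (adjusted p = 0.368). Under the alternatives *Mgat4a* lay between -0.25 and -0.02 and *Mgat4b* between -0.20 and -0.04, and neither passed. *Mgat1* stood at 322% of *Mgat5* with control siRNA and at 224% with *Xbp1* siRNA.

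The *Galnt* family held the largest increase among genes with a mean of at least 1 FPKM, that of *Galnt7*. These genes encode the enzymes that attach *N*-acetylgalactosamine to serine or threonine, the start of mucin-type O-glycans, and 4 of 8 rose, 1 fell and 3 did not pass, with a median log2 fold change of 0.47. The median was 0.27 with a pseudocount of 1, and 6 of 8 rose with eBayes without trend, where *Galnt13* and *Galnt16* passed too (adjusted p = 0.0326 and 0.0403). The family's summed level differed little, at 107 ± 1.39 FPKM with control siRNA and 111 ± 1.01 FPKM with *Xbp1* siRNA, but the shares of its genes differed between the groups.

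*Galnt2*, an enzyme with a broad range of substrates and the most abundant of the family, was at 59.0, 59.4 and 58.0 FPKM in the control libraries and at 36.3, 35.7 and 35.9 FPKM in the *Xbp1* siRNA libraries. The spread within each group was under 1 FPKM (SD 0.698 and 0.284), and the gene fell by 0.71 on the log2 scale (standard error 0.0346, adjusted p = 8.18e-06). *Galnt7*, which prefers peptides that already carry *N*-acetylgalactosamine, was at 7.88, 8.35 and 8.85 FPKM with control siRNA and at 18.0, 18.7 and 18.8 FPKM with *Xbp1* siRNA. It was called higher, at 221% of control and a log2 fold change of 1.14 (standard error 0.0654, adjusted p = 1.82e-05), and every silenced library was above 2 times the control mean. *Galnt1*, another enzyme of broad range, went from 14.4, 15.8 and 16.0 FPKM to 25.0, 27.1 and 24.1 FPKM, a log2 fold change of 0.72 (adjusted p = 1.55e-04) without overlap. *Galnt10* rose from 6.64 ± 0.0323 to 10.2 ± 0.736 FPKM, by 0.61 on the log2 scale (adjusted p = 6.80e-04), and *Galnt11* from 16.6 ± 0.347 to 19.8 ± 0.805 FPKM, by 0.25 (adjusted p = 0.00752).

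Within a library, *Galnt2* made up 55.0 ± 0.979% of the summed *Galnt* level with control siRNA and 32.3 ± 0.342% with *Xbp1* siRNA. The share of *Galnt7* was 7.81% and 16.6%, and that of *Galnt1* was 14.4% and 22.8%. *Galnt7* reached 13.4%, 14.1% and 15.2% of the level of *Galnt2* in the control libraries and 49.6%, 52.3% and 52.3% in the *Xbp1* siRNA libraries. These ratios, like the other ratios between genes given here, were chosen after the values had been seen and are descriptions. *Galnt13*, *Galnt16* and *Galnt18* lay under 1 FPKM on average and did not pass. The values of *Galnt16* correspond to 15, 16 and 18 reads with control siRNA and to 22, 20 and 28 reads with *Xbp1* siRNA, where a read is the step in which the FPKM of this gene fell, and those of *Galnt18* to 3, 5 and 2 reads and to 2, 4 and 0 reads. Read numbers cover counting error only.

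**Figure D4:**
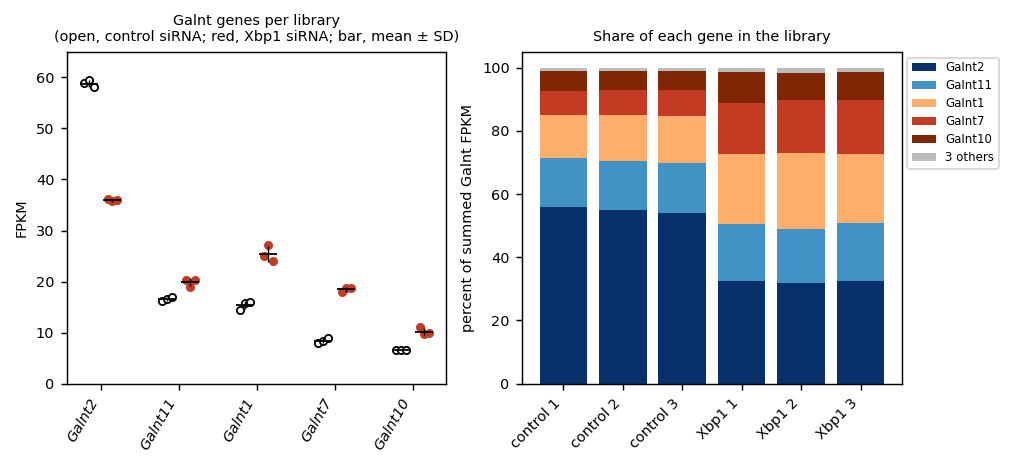
Left, FPKM (y axis) of the 5 abundant *Galnt* genes (x axis) in 3 control siRNA libraries (open circles) and 3 *Xbp1* siRNA libraries (red circles), with bars for the mean and SD. Right, percent of the summed *Galnt* FPKM (y axis) held by each gene in each library (x axis): *Galnt2* holds between 54.0% and 55.9% in the control libraries and between 31.9% and 32.6% in the *Xbp1* siRNA libraries.

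The *B3galt* and *B4galt* galactosyltransferases held 3 of 10 genes that rose, 3 that fell and 4 that did not pass, with 20.2% of all rows tested in each direction, and a median log2 fold change of -0.12. *B4galt7* and *B3galt6*, both of which rose, encode enzymes that add the galactoses of the linker by which glycosaminoglycan chains are held on proteoglycans. *B4galt7* was at 40.3, 39.2 and 38.8 FPKM with control siRNA and at 69.3, 63.0 and 66.7 FPKM with *Xbp1* siRNA. It stood at 168% of control, with a log2 fold change of 0.75 (standard error 0.0457, adjusted p = 2.24e-05) and a wide gap between the groups. *B3galt6* went from 26.9, 29.6 and 26.6 FPKM to 35.6, 35.4 and 32.3 FPKM, a log2 fold change of 0.31 (adjusted p = 0.00539) without overlap. *B3galt4*, which adds a galactose to gangliosides, rose by 0.48 (adjusted p = 0.0412), but its highest control library and its lowest *Xbp1* siRNA library both lay at 10.9 FPKM and the groups overlapped. It did not pass without *Xbp1* siRNA replicate 1 or 2 (adjusted p = 0.125 and 0.0841) or control replicate 2 or 3 (adjusted p = 0.123 and 0.116).

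The galactosyltransferases that fell included the most abundant of the family. *B4galt3* was at 66.8, 64.6 and 64.8 FPKM in the control libraries and at 51.0, 50.0 and 54.5 FPKM in the *Xbp1* siRNA libraries, and fell by 0.33 on the log2 scale (standard error 0.0434, adjusted p = 7.46e-04). *B4galt6*, one of the lactosylceramide synthases, was at 8.29, 7.88 and 8.69 FPKM and then at 6.15, 6.08 and 6.09 FPKM, and fell by 0.43 (adjusted p = 0.00297). Neither gene had overlapping libraries. *B4galt1*, which adds galactose to the branches of N-glycans, fell by 0.29 (adjusted p = 0.0438), from 9.98 ± 0.617 to 8.16 ± 0.827 FPKM, a call that depended on every library but *Xbp1* siRNA replicate 1, with an adjusted p between 0.0707 and 0.128 when any of the other 5 was left out. *B4galt2*, *B4galt4*, *B4galt5* and *B3galt1* did not pass, with log2 fold changes between -0.54 (*B3galt1*) and -0.03 (*B4galt4*). *B4galt2* had -0.15 (adjusted p = 0.178), or -0.23 without *Xbp1* siRNA replicate 1, where it passed as lower (adjusted p = 0.0299). In the control libraries *B4galt7* amounted to 60.4%, 60.7% and 59.9% of *B4galt3*, and in the *Xbp1* siRNA libraries to 136%, 126% and 122%, so that the order of these genes differed between the groups.

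Of the *B3gnt* genes, which extend chains with *N*-acetylglucosamine, none of 5 rose, 2 fell and 3 did not pass, and their sum went from 69.6 ± 2.74 to 59.9 ± 2.66 FPKM. *B3gnt2*, the main enzyme of poly-*N*-acetyllactosamine chains, was at 42.5, 45.3 and 46.9 FPKM with control siRNA and at 34.2, 35.7 and 34.7 FPKM with *Xbp1* siRNA. It fell by 0.36 on the log2 scale (standard error 0.0484, adjusted p = 8.53e-04), and all control libraries were above all silenced ones. *B3gnt9* was at 5.11, 4.28 and 4.08 FPKM and then at 2.07, 2.91 and 3.00 FPKM, also without overlap, and fell by 0.74 (standard error 0.171, adjusted p = 0.0108). *B3gntl1* had 0.12 on the log2 scale (adjusted p = 0.455), and between 0.0038 and 0.23 under the alternatives, where it did not pass. *B3gnt4* and *B3gnt7*, at 0.529 and 0.499 FPKM in the control libraries on average, had values of 0.42 and 0.26 (adjusted p = 0.471 and 0.527). Under the alternatives *B3gnt4* lay between 0.12 and 0.81 and *B3gnt7* between 0.10 and 0.51, and neither passed.

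Among the sialyltransferases, which cap glycan chains with sialic acid, 4 of 10 rose, none fell and 6 did not pass. Their sum went from 197 ± 4.33 to 216 ± 1.75 FPKM, and their median log2 fold change was 0.22, or 0.13 among those with a mean of at least 1 FPKM. *St8sia6*, which adds sialic acid onto sialic acid, was called higher. It was at 0.337, 0.326 and 0.438 FPKM in the control libraries and at 1.05, 1.15 and 0.870 FPKM in the *Xbp1* siRNA libraries, or 279% of control, with a log2 fold change of 1.27 (standard error 0.239, adjusted p = 0.00449). With a pseudocount of 1 the log2 fold change was 0.56 and the gene was not called (adjusted p = 0.00328). These low values correspond to 11, 10 and 14 reads against 35, 37 and 33 reads, so the gene did not overlap between groups but rests on few reads. *St3gal5*, which sialylates lactosylceramide and so starts the common gangliosides, was at 5.83, 4.96 and 5.92 FPKM with control siRNA and at 8.95, 8.44 and 9.67 FPKM with *Xbp1* siRNA. It rose by 0.69 on the log2 scale (standard error 0.0997, adjusted p = 0.00129), with a clear gap between the groups.

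*St3gal1* and *St3gal2* encode enzymes that sialylate the galactose of short O-glycans. *St3gal1* had the highest level of the 80 genes, at 95.1, 97.4 and 94.1 FPKM in the control libraries and 104, 106 and 103 FPKM in the *Xbp1* siRNA libraries. The groups did not overlap, and the small log2 fold change of 0.13, or 0.20 with quantile normalization, passed (adjusted p = 0.0156), except without *Xbp1* siRNA replicate 2 (adjusted p = 0.0540) or control replicate 3 (adjusted p = 0.0501), or with eBayes without trend (adjusted p = 0.0639). *St3gal2* went from 11.2, 11.9 and 10.6 FPKM to 13.0, 15.2 and 14.4 FPKM, a log2 fold change of 0.34 (adjusted p = 0.0116), likewise without overlap. The sialyltransferases that act on N-glycan galactose did not pass: *St3gal3* had -0.09 (adjusted p = 0.718), *St3gal4* -0.02 (adjusted p = 0.872) and *St3gal6* -0.01 (adjusted p = 0.965). *St6galnac4* (0.04, adjusted p = 0.700), *St6galnac6* (0.32, adjusted p = 0.0522) and the polysialyltransferase *St8sia4* (0.43, adjusted p = 0.192) did not pass either. Of these, *St6galnac6* passed in 3 of 14 alternatives, with 0.44 (adjusted p = 0.00612) without control replicate 1. *St8sia4* lay between 0.26 and 0.64 under the alternatives and did not pass in any.

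The fucosyltransferases were represented by *Fut8*, which puts the core fucose on N-glycans, and *Fut11*. *Fut8* was at 11.0, 9.34 and 9.34 FPKM with control siRNA and at 13.1, 11.9 and 12.5 FPKM with *Xbp1* siRNA, without overlap. It rose by 0.34 on the log2 scale (adjusted p = 0.0163), and this was lost without *Xbp1* siRNA replicate 1 (adjusted p = 0.0574), without control replicate 2 (adjusted p = 0.0557) or without control replicate 3 (adjusted p = 0.0531). *Fut11* had 0.22 (adjusted p = 0.0727), and passed with eBayes without trend (adjusted p = 0.0198).

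Of the 20 *Slc35* genes, 8 rose, 2 fell and 10 did not pass. Their sum went from 432 ± 3.01 to 484 ± 4.42 FPKM, or 112% of control. The choice by symbol took in genes such as *Slc35b1* and *Slc35b2*, which carry other substrates. These totals are therefore not those of sugar donor transporters alone. *Slc35a1*, *Slc35a3* and *Slc35d2* were among the genes that rose, and *Slc35c1* fell. The rises of *Slc35a3* and *Slc35d2* did not pass under every alternative. *Slc35c1*, the GDP-fucose transporter, was at 25.9, 23.5 and 24.9 FPKM in the control libraries and at 16.2, 16.1 and 15.9 FPKM in the *Xbp1* siRNA libraries. It fell by 0.62 on the log2 scale (standard error 0.0536, adjusted p = 1.07e-04), with a narrow spread and no overlap. Its relative *Slc35c2* went the other way, from 55.5, 48.4 and 49.5 FPKM to 80.5, 65.5 and 78.6 FPKM. All 3 silenced libraries were above the controls, with a log2 fold change of 0.55 (standard error 0.0879, adjusted p = 0.00213). *Slc35c1* was at 46.7%, 48.5% and 50.4% of *Slc35c2* in the control libraries and at 20.1%, 24.5% and 20.2% in the *Xbp1* siRNA libraries.

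*Slc35d2*, a transporter of *N*-acetylglucosamine donors, was at 6.65, 4.56 and 5.63 FPKM with control siRNA and at 7.55, 9.95 and 8.05 FPKM with *Xbp1* siRNA. The groups did not overlap and the gene rose by 0.60 (adjusted p = 0.0201), but it did not pass without *Xbp1* siRNA replicate 2 (adjusted p = 0.0643) or without control replicate 2 (adjusted p = 0.0529). *Slc35a1*, the CMP-sialic acid transporter, rose by 0.35 (adjusted p = 0.0102), and *Slc35a3*, the transporter of UDP-*N*-acetylglucosamine, by 0.37 (adjusted p = 0.0308). *Slc35b2*, which carries the sulfate donor of the Golgi, rose by 0.23 (adjusted p = 0.00621), and *Slc35a5*, *Slc35f5* and *Slc35f6* rose by 0.53, 0.36 and 0.21 (adjusted p = 0.00156, 0.0273 and 0.0124). *Slc35a3* did not pass without *Xbp1* siRNA replicate 1 or 3 (adjusted p = 0.0540 and 0.0989) or control replicate 1 or 2 (adjusted p = 0.0719 and 0.0701), nor *Slc35f5* without *Xbp1* siRNA replicate 1 or 2 (adjusted p = 0.0695 and 0.0857) or control replicate 1 (adjusted p = 0.0653). *Slc35g6*, a member of low level, was at 1.72, 2.02 and 1.87 FPKM and then at 0.985, 1.14 and 0.997 FPKM. It fell by 0.79 on this scale (standard error 0.162, adjusted p = 0.00676) and by 0.49 with a pseudocount of 1, and its libraries did not overlap.

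The most abundant transporter, *Slc35b1*, which exchanges ATP and ADP across the ER membrane, was at 65.9, 69.0 and 64.0 FPKM with control siRNA and at 68.6, 77.0 and 69.2 FPKM with *Xbp1* siRNA. Its groups overlapped, and the log2 fold change of 0.11 did not pass (adjusted p = 0.153). It was 0.17 and passed with quantile normalization (adjusted p = 0.0405), and was 0.06 without *Xbp1* siRNA replicate 2. The UDP-galactose transporter *Slc35a2* had 0.12 (adjusted p = 0.608), with control libraries between 8.73 and 13.6 FPKM. *Slc35b4*, a transporter of UDP-xylose, had -0.16 (adjusted p = 0.159), and *Slc35d1*, an ER transporter of UDP-glucuronic acid, had 0.08 (adjusted p = 0.282). The remaining 6 that did not pass, *Slc35a4*, *Slc35b3*, *Slc35e1*, *Slc35e3*, *Slc35e4* and *Slc35f2*, had values between -0.09 and 0.19.

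**Figure D5:**
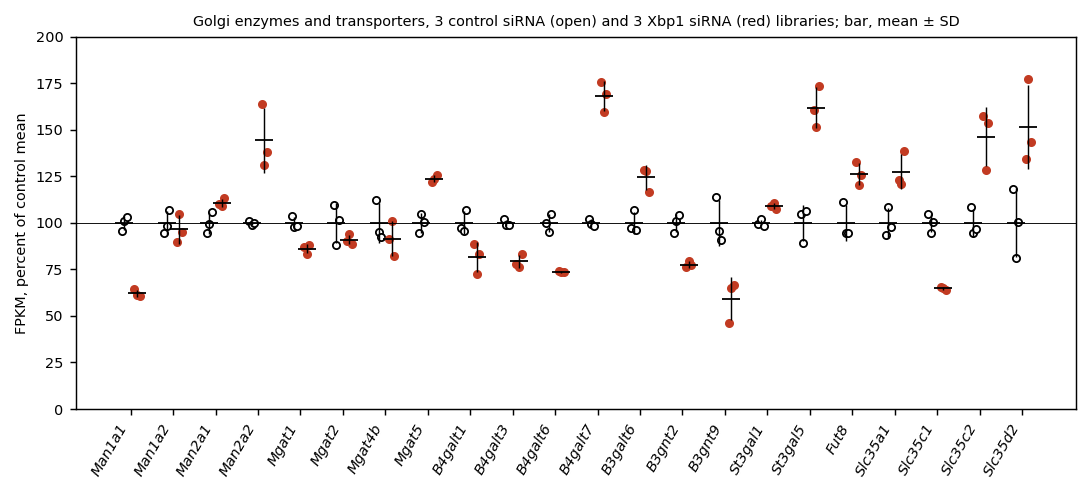
FPKM of 22 Golgi enzymes and transporters (x axis) in each library as percent of the control mean of that gene (y axis), with open circles for 3 control siRNA libraries, red circles for 3 *Xbp1* siRNA libraries and bars for the mean and SD. *Man1a1* (62.2%), *B3gnt9* (59.3%) and *Slc35c1* (64.8%) lie below control, and *B4galt7* (168%), *St3gal5* (162%), *Slc35d2* (152%) and *Slc35c2* (146%) lie above.

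A further 43 rows carried a symbol of these families but had a mean under 0.1 FPKM and were not tested. Of these, 28 were listed at 0 in all 6 libraries, among them *St6gal1* and *St6gal2*, which add sialic acid to N-glycans in a linkage other than that made by the St3gal enzymes, *Mgat5b*, *Galnt3*, *Fut4* and *Fut9*. *Mgat3*, which adds the bisecting *N*-acetylglucosamine of N-glycans, lay just outside the limit with a mean of 0.0917 FPKM, or 0, 0 and 1 reads with control siRNA and 3, 0 and 4 reads with *Xbp1* siRNA, followed by *Slc35g2* at 0.0614 and *Fut1* at 0.0452 FPKM. Just inside lay *Galnt18* at 0.163, *Galnt16* at 0.514 and *B3galt1* at 0.522 FPKM. All 80 genes had a mean of at least 0.1 FPKM in each of the groups, so none entered through only the group in which it was higher.

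Genes of the same pathways with other names were taken as lists, whose counts stand against 20.2% of all rows tested that rose and 20.2% that fell. Of 27 rows tested for dolichol and sugar nucleotide supply, 10 rose, 3 fell and 14 did not pass, and their sum was 103% of control. The 27 rows hold *Dhdds* on 2 rows, of which 1 rose and 1 fell. The largest change was in *Gmds*, which starts the route from GDP-mannose to GDP-fucose. It was at 6.35, 6.03 and 6.56 FPKM with control siRNA and at 10.2, 12.3 and 10.3 FPKM with *Xbp1* siRNA, without overlap, and rose by 0.78 on the log2 scale (adjusted p = 5.36e-04). Among 9 genes of glycan trimming and quality control in the ER, 5 rose, 1 fell and 3 did not pass. Their sum was 114% of control, at 378 and 432 FPKM, and most of the difference lay in *Prkcsh*, at 97.1 and 149 FPKM. *Uggt2*, a relative of the sensor that puts glucose back on misfolded glycoproteins, went from 4.28, 4.71 and 4.34 FPKM to 6.44, 7.21 and 7.29 FPKM, a log2 fold change of 0.64 (adjusted p = 0.00131) without overlap. Of 20 other glycan enzymes tested, 8 rose, 2 fell and 10 did not pass. Of the 8 that rose, *Pofut1*, *Pofut2* and *Poglut1* encode enzymes of the ER. *Lfng*, the Fringe enzyme that extends O-fucose on Notch, was the only gene of these lists that was called, and it was called in 11 of 14 alternatives. Its levels were 2.93, 2.20 and 2.42 FPKM in the control libraries and 1.03, 1.39 and 1.00 FPKM in the *Xbp1* siRNA libraries, which did not overlap, with a log2 fold change of -1.08 (standard error 0.190, adjusted p = 0.00326). The decrease passed in all 14 alternatives, but its log2 fold change was under 1 in size with a pseudocount of 1 (-0.72), without *Xbp1* siRNA replicate 3 (-0.99993) and without control replicate 1 (-0.97).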

How the data were processed

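RNA-Seq was carried out by the authors on stranded mRNA libraries of CHO-T cells transfected with negative control siRNA (n = 3) or *Xbp1* siRNA (n = 3), grouped here by sample title. The authors deposited FPKM values, 1 library per file, in 27873 rows named by gene symbol. The submitters' processing notes name HISAT2 2.1.0 and Cuffdiff 2.2.1, and the genome build and annotation are not given in the sources used here, so no coordinates are given. The raw counts named in the study's methods were not used here, and limma takes the place of the DESeq2 test named there. Rows with a mean of at least 0.1 FPKM (14361) entered limma 3.58.1 (R 4.3.3; lmFit, and eBayes with an intensity trend) on the log2(FPKM + 0.1) scale, with Benjamini-Hochberg adjustment. The limits for calling a gene, an adjusted p of 0.05 and a log2 fold change of 1 in size, are those of the study. A simulation was run only for calls at the fold limit, and its outcome is not given here. It does not cover smaller changes that pass by adjusted p alone. Other steps used Python 3.11.15, numpy 2.4.6 and pandas 2.3.3. FPKM carry no read totals, so relative depth and reads were taken from the steps in which low values fell. The precision is set by 3 libraries per group, where the smallest exact two-sided permutation p is 0.10, and p-values come from limma only.

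The genes, the role groups and the other lists were chosen with earlier results of these data known. Genes given with their value in every library were those called, up to 2 genes with the largest change in each direction of each role group (adjusted p under 0.05, mean of at least 1 FPKM, no overlap), the most abundant gene of each group, of the other lists every gene called and the one with the largest change, and *Xbp1*; *Dpagt1*, *Alg8*, *Tsta3* and a few values at low levels were added after the values were seen. A RefSeq gene table (assembly CriGri-PICRH-1.0) held 78 of the 80 symbols and served for names alone. A search of promoters for XBP1 motifs was intended and not run, since no promoter sequences were used here. The alternatives tried were a pseudocount of 1 or 0.01, a minimum mean of 1 FPKM or no minimum, median-ratio scaling, quantile normalization, eBayes without trend, the replicate number as a block, and leaving out each library in turn.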

Additional observations from a re-analysis of the deposited data

How the results depend on the processing

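The results were recomputed under 14 alternatives. The number of genes called higher was 2 and became 1 with a filter at a mean of 1 FPKM, where *St8sia6* was not tested, and 1 with a pseudocount of 1, where *St8sia6* was below the fold limit; 0 were called lower in all 14. The number that rose (28) ranged from 22 to 32, and the number that fell (12) from 11 to 13; leaving out a library gave 22 to 28 risen genes. The share of all rows tested that rose ranged from 15.6% to 24.1%, and the share that fell from 15.8% to 25.1%. The median log2 fold change of 0.14 was 0.12 with a filter at 1 FPKM, 0.12 with a pseudocount of 1, 0.16 with quantile normalization, and between 0.12 and 0.14 when a library was left out. The 33 genes chosen by the naming rule kept their sign in all 461 values. Of the other genes, *Man1a2*, *B4galt4*, *St3gal3*, *St3gal4*, *St3gal6*, *St6galnac4*, *Slc35a2* and *Slc35e4*, which did not pass, changed sign under some alternative. Of the genes that rose, 20 of 28 did so under every alternative in which they were tested, as did 11 of the 12 that fell; the others were *Alg11*, *Alg12*, *B3galt4*, *Fut8*, *Slc35a3*, *Slc35d2*, *Slc35f5* and *St3gal1*, and *B4galt1*. *Alg11*, *B3galt4*, *B4galt1*, *Slc35a3* and *Slc35f5* were also lost with eBayes without trend (adjusted p between 0.0544 and 0.0873), and *B3galt4* and *B4galt1* with no filter (0.0553 and 0.0570). Of the 40 genes that did not pass, 26 passed in no alternative in which they were tested.

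Libraries of the 2 groups with the same number did not deviate together (correlations of -0.0289, -0.0265 and -0.0124), so the numbers were not taken as pairs. A replicate block in the fit gave 2 genes called higher and 0 lower, with 28 that rose and 13 that fell, the median log2 fold change was 0.14, *Dpm3* (adjusted p = 0.00907) and *Man2a1* (adjusted p = 0.0429) passed and *Slc35d2* did not (adjusted p = 0.0518). Genes under 1 FPKM are limited by depth, and FPKM describe mRNA levels, not enzyme activity or glycans.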

Other observations

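*Tsta3*, which completes GDP-fucose after the step of *Gmds*, was at 16.0, 19.2 and 17.4 FPKM with control siRNA and at 26.7, 25.2 and 26.9 FPKM with *Xbp1* siRNA (log2 fold change 0.58, adjusted p = 6.30e-04), without overlap. The salvage genes *Fuk* and *Fpgt*, which make GDP-fucose from free fucose, did not pass, with -0.19 (adjusted p = 0.0747) and 0.02 (adjusted p = 0.912). *Pofut1*, which puts O-fucose on Notch-type repeats, went from 53.2 ± 1.73 to 73.2 ± 2.37 FPKM (log2 fold change 0.46, adjusted p = 1.42e-04), and *Pofut2*, which acts on thrombospondin-type repeats, from 62.5 ± 2.49 to 98.3 ± 4.17 FPKM (0.65, adjusted p = 4.31e-05). *Slc35c1*, *Lfng* and *Rfng* (-0.17, adjusted p = 0.0276) fell in the same libraries. These genes were chosen after their values were seen.

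In ER quality control, *Prkcsh*, the beta subunit of glucosidase II, rose from 97.1 ± 5.38 to 149 ± 8.82 FPKM (0.62, adjusted p = 1.40e-04), while *Ganab*, its catalytic subunit, fell from 154 ± 1.69 to 140 ± 2.33 FPKM (-0.14, adjusted p = 0.00801). The folding sensor *Uggt1* rose by 0.52 (adjusted p = 2.88e-04), and *Edem1*, which directs misfolded glycoproteins to degradation, by 0.46 (adjusted p = 5.03e-04). In sugar nucleotide supply, *Uap1*, which makes UDP-*N*-acetylglucosamine, fell from 64.0 ± 3.57 to 44.1 ± 1.33 FPKM (-0.54, adjusted p = 1.69e-04), and *Nans*, which makes the sialic acid phosphate, rose from 21.5 ± 1.71 to 31.3 ± 3.07 FPKM (0.54, adjusted p = 0.00205). *Dhdds*, a subunit of the enzyme that makes the dolichol chain, stands on 2 rows that went opposite ways, from 63.0 ± 1.22 to 44.1 ± 0.839 FPKM (-0.51, adjusted p = 4.25e-05) and from 54.5 ± 1.09 to 60.3 ± 2.21 FPKM (0.15, adjusted p = 0.0244), so its direction is uncertain. These genes, too, were chosen after their values were seen, and all p-values are from limma.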
